A study of Bos taurus with 15 samples.

Results

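A set of 5 genes linked to protein uptake in the newborn enterocyte, CUBN, AMN, LRP2, DAB2 and the regulator PRDM1, was followed along the intestine of newborn (NB) and adult (AD) cattle. They were taken by symbol, and each of the 5 symbols belonged to 1 of the 27270 genes counted in every library. The identifiers were ENSBTAG00000005072 for CUBN, ENSBTAG00000015750 for AMN, ENSBTAG00000004555 for LRP2, ENSBTAG00000016152 for DAB2 and ENSBTAG00000000816 for PRDM1.

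The gut of a newborn calf takes up intact proteins from colostrum and milk. In suckling mammals, enterocytes of the lower small intestine bind luminal proteins at the apical membrane, internalize them in clathrin-coated vesicles and degrade them in a large lysosome. CUBN encodes cubilin, a peripheral membrane protein that binds many ligands, among them the complex of intrinsic factor and vitamin B12. AMN encodes amnionless, the membrane partner that carries cubilin to the cell surface, and the pair is called cubam. LRP2 encodes megalin, a giant endocytic receptor that works with cubam in the kidney. DAB2 encodes a clathrin adaptor that links such receptors to the coat. PRDM1 encodes BLIMP1, a transcriptional repressor that in the mouse holds back the adult type of enterocyte until weaning, and that is also a regulator of plasma cells and T cells.

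The series held 15 libraries of single cells made with the 10x Genomics method, which tags the transcripts of a cell with one barcode and tells single molecules apart by a further tag, the UMI. The 10 intestinal libraries were 6 from NB cattle (duodenum, jejunum, ileum, cecum, colon and rectum) and 4 from the adult (the same tissues without ileum and rectum), with 1 library for each tissue and stage. All AD gut was from 1 lactating Holstein cow and NB gut from calves whose assignment to libraries is not given, and the NB gut was treated with EDTA and trypsin before a lamina propria enzyme kit. That kit alone was used for AD duodenum and cecum, while AD jejunum and colon were digested for longer with another, multi-tissue kit. Stage, animal and dissociation therefore cannot be told apart, no test between stages was possible, and every interval below is at the 95% level and covers counting error only. Library totals ran from 17707625 to 129458578 UMIs.

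Epithelial cells were found by EPCAM, a surface protein of epithelia. A barcode counted as an EPCAM barcode with at least 1 EPCAM UMI and 0 UMIs of PTPRC (leukocytes) and of COL1A2 (fibroblasts), which gave 7238 barcodes in the 10 intestinal libraries. NB duodenum had 3245 of them, NB jejunum 1084, NB ileum 599, NB cecum 279, NB colon 864 and NB rectum 646, while AD jejunum had 129, AD cecum 226 and AD colon 135. The epithelial keratin KRT8 was seen in 62.6% to 87.2% of the EPCAM barcodes in these 9 libraries. AD duodenum did not hold up to its label of epithelium: of its 31 EPCAM barcodes 2 had KRT8, absorptive-marker UMIs were at 0, and JCHAIN, a gene of antibody-secreting plasma cells, reached 104640 CPM (the UMIs of a gene over all UMIs of the same barcodes, scaled as CPM by convention). Results that rest on AD duodenum are given with and without it. Across all EPCAM barcodes, 67 barcode sequences occurred in more than 1 library.

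Over all EPCAM barcodes, cubilin was highest in the NB upper small intestine. The libraries differed in their number of absorptive barcodes, as given below, and this order was not adjusted for that. In NB duodenum, 1956 CUBN UMIs gave 48.9 CPM (46.7 to 51.1), and 861 of 3245 barcodes (26.5%) held at least 1. NB jejunum followed with 15.2 CPM (13.1 to 17.4) in 10.9% of barcodes. NB cecum had 5.57 CPM from 15 UMIs and NB colon 3.87 CPM from 38 UMIs, and their intervals overlapped. No UMI was found in NB ileum (0 of 599 barcodes, where a floor of 3 counts allows a share with a UMI of up to 0.501%) or NB rectum (0 of 646 barcodes, up to 0.464%). In AD cattle, jejunum and colon had 1 UMI each, and cecum and duodenum had 0. NB duodenum was separated by its interval from the other 9 libraries. NB jejunum was separated from those below it apart from AD duodenum, where 0 UMIs still allow up to 18.4 CPM.

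Amnionless was found in the EPCAM barcodes of all 10 libraries, at levels that differed less. NB jejunum was highest at 291 CPM (282 to 301) and NB duodenum followed at 252 CPM (247 to 257). NB rectum had 133 CPM, and NB colon (100.1 CPM), AD cecum (97.4 CPM), NB cecum (95.1 CPM) and NB ileum (82.2 CPM) formed a row in which each interval overlapped the next. AD colon had 71.7 CPM, AD jejunum 64.0 CPM, and AD duodenum 3 UMIs. By the share of barcodes with an AMN UMI, NB duodenum (71.6%) and NB jejunum (65.3%) were also above the rest, and they stayed so at equal depth. After each barcode was thinned to 2000 UMIs (shallower barcodes left out, 3 to 85 per library), AMN was found in 32.4% of NB duodenum, 30.8% of NB jejunum and 18.7% of NB rectum barcodes, in 13.2% to 15.1% of those of the other 3 NB libraries, and in 9.91% to 16.9% of those of AD jejunum, cecum and colon. In T cell barcodes, which should lack the gene, 0.725% to 1.63% of barcodes held an AMN UMI across 5 NB libraries, without thinning. The share reached 3.59% in stromal, 4.52% in endothelial and 5.15% in macrophage barcodes of NB libraries. Plasma barcodes are described at the end.

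DAB2 and PRDM1 were sparse and spread differently. DAB2 was highest in NB jejunum at 25.6 CPM (22.9 to 28.5), followed by NB cecum (17.8 CPM), NB colon (15.5 CPM) and NB rectum (13.9 CPM), each overlapping the next. NB duodenum had 7.92 CPM and NB ileum 7.83 CPM. AD colon, jejunum and cecum had 7, 2 and 4 UMIs. PRDM1 ran from 5.71 CPM in NB colon to 27.2 CPM in NB jejunum among the NB libraries and from 14.2 CPM in AD cecum to 29.3 CPM in AD jejunum, with AD duodenum apart at 214 CPM.

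**Figure D1:**
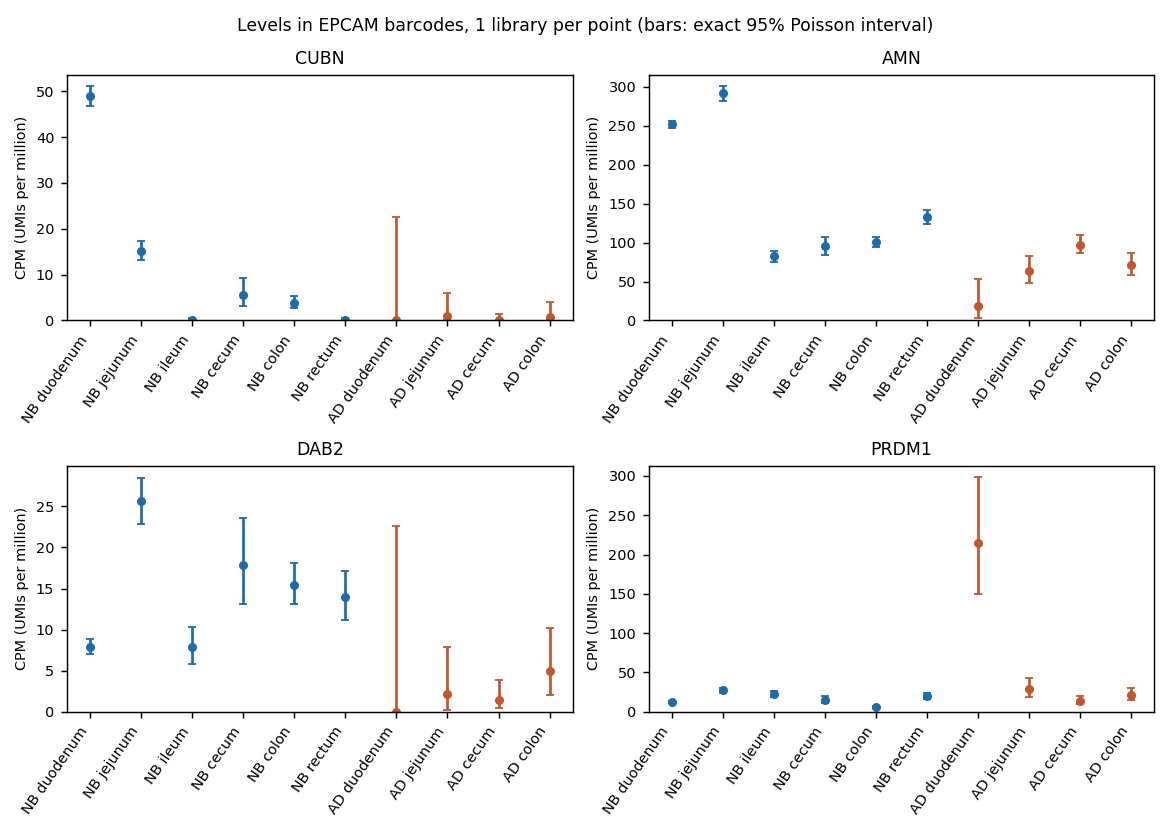
Level of CUBN, AMN, DAB2 and PRDM1 (CPM, linear axis) in the EPCAM barcodes of each intestinal library, NB in blue and AD in orange, with exact 95% Poisson intervals and 1 library per point. CUBN stands at 48.9 CPM in NB duodenum and 15.2 CPM in NB jejunum and near 0 in the AD libraries, while AMN is present throughout.

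Megalin was nearly undetected. LRP2 had 4 UMIs in NB duodenum and 3 in NB jejunum, and 0 in the other 8 intestinal libraries. By the floor of 3 counts, the 0 of 864 barcodes in NB colon allow a share with a UMI of up to 0.347%. In NB duodenum that was 4 of 3245 barcodes with megalin transcripts, beside 861 with cubilin and 2324 with amnionless. The largest number outside the intestine was 15 UMIs in 4453 EPCAM barcodes of NB abomasum.

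To see which barcodes carried the genes, the EPCAM barcodes were split into absorptive barcodes, other epithelial barcodes and mixed barcodes. Absorptive barcodes had at least 0.5% of UMIs from 14 absorptive markers (such as FABP1, APOA1, ALPI and LCT). Mixed barcodes had 0.1% or more of UMIs from the markers of T cells, macrophages, plasma and B cells, stroma, endothelium, glia or muscle. The class is a range of a score rather than a cell type, and 465 NB duodenum and 92 NB jejunum barcodes lay between 0.2% and 1%. The absorptive class held 1903 barcodes in NB duodenum, 413 in NB jejunum, 61 in NB cecum, 108 in NB colon and 115 in NB rectum, but 5 in NB ileum, so that the 0 CUBN UMIs of NB ileum were measured almost wholly in barcodes below this limit. With GUCA2A and GUCA2B, a further pair of absorptive markers, counted as well and mixed barcodes not left out, 92 barcodes of NB ileum reached it.

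CUBN lay in the absorptive barcodes. In NB duodenum it had 72.5 CPM there (832 of 1903 barcodes, 43.7%), against 2.16 CPM in other epithelial and 2.14 CPM in mixed barcodes. In NB jejunum the values were 38.3 CPM (114 of 413 barcodes, 27.6%) and 0.428 CPM (3 UMIs in 510 barcodes). In NB colon they were 24.7 CPM (16.4 to 35.6, 12 of 108 barcodes) and 1.22 CPM. The first of these, from 28 UMIs, overlapped the interval of the NB jejunum absorptive barcodes (33.0 to 44.1). The shares of absorptive barcodes with a UMI, without thinning, did not overlap. They were 11.1% (5.87% to 18.6%) in NB colon and 27.6% (23.3% to 32.2%) in NB jejunum. In NB cecum, with 6 UMIs each in absorptive (7.86 CPM) and other epithelial barcodes (3.79 CPM) and 3 in mixed barcodes (8.73 CPM), the intervals overlapped. NB rectum had 115 absorptive barcodes with 0 CUBN UMIs, which allow up to 1.69 CPM. The stromal barcodes of the 6 NB libraries had CUBN UMIs in 0% to 1.54% of barcodes.

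AMN was shared more widely among epithelial barcodes. Absorptive barcodes had 322 CPM in NB duodenum and 589 CPM in NB jejunum, and other epithelial barcodes 126 CPM and 111 CPM. In the large intestine the gap was smaller, with 163 CPM against 138 CPM in NB rectum 136 CPM against 94.7 CPM in NB cecum and 181 CPM against 93.2 CPM in NB colon, and the intervals overlapped in rectum. Among the other epithelial barcodes of NB jejunum, those with goblet cell markers had 13.7 CPM, and those with proliferation markers 154 CPM. Goblet barcodes were also low in NB duodenum (31.4 CPM), NB ileum (23.6 CPM) and NB colon (24.4 CPM), but not in NB rectum (148 CPM). Proliferating barcodes had 131 CPM in NB duodenum, 116 CPM in NB ileum and 106 CPM in NB colon. Mixed barcodes had 5.82 to 34.6 CPM in the 6 NB libraries.

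DAB2 was highest in the mixed barcodes of the 6 NB libraries, leaving aside the 5 absorptive barcodes of NB ileum, which held 1 UMI. In NB duodenum, 232 of its 317 UMIs lay in the 333 mixed barcodes (124 CPM) and 32 in the 1903 absorptive barcodes (1.2 CPM, 0.823 to 1.70). Mixed barcodes were also highest in NB jejunum (136 CPM), NB cecum (110.5 CPM), NB colon (59.4 CPM), NB rectum (44.9 CPM) and NB ileum (21.7 CPM). Barcodes without EPCAM gave the same picture, with a DAB2 median over 6 NB libraries of 116 CPM in endothelial and 96.1 CPM in stromal barcodes and a highest value of 287 CPM in macrophage barcodes. NB jejunum differed in its absorptive barcodes, which had 33.1 CPM (28.2 to 38.5), with DAB2 UMIs in 76 of 413, beside 6.13 CPM in its other epithelial barcodes. With mitochondrial UMIs held under 10%, 78 of these 413 barcodes were left, DAB2 fell to 10.2 CPM (4.67 to 19.4) and CUBN to 15.9 CPM (8.69 to 26.7). With the main limits, the intervals of the absorptive barcodes of jejunum and duodenum were far apart, at 28.2 CPM and above against 1.70 CPM and below. In NB colon and rectum the other epithelial barcodes (14.0 CPM in each) lay above the absorptive ones (7.05 and 3.37 CPM), with overlapping intervals in colon.

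PRDM1 was also highest in mixed barcodes, at 56.7 to 96.4 CPM in the 6 NB libraries. Absorptive barcodes had 33.5 CPM in NB jejunum (28.6 to 38.9) and 11.3 CPM in NB duodenum (10.1 to 12.7), above the 14.1 and 6.57 CPM of the other epithelial barcodes of the same libraries. In NB colon the values were 10.6 CPM from 12 UMIs and 1.84 CPM. In NB rectum (13.5 and 11.3 CPM) and NB cecum (5.24 and 8.20 CPM) the intervals of both classes overlapped. Plasma barcodes without EPCAM had a median of 245 CPM over 3 NB libraries and 217 CPM over 4 AD libraries, and T cell barcodes of AD gut 68.1 to 114 CPM. The 214 CPM of AD duodenum came from 35 UMIs, all of them in its 28 mixed barcodes.

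**Figure D2:**
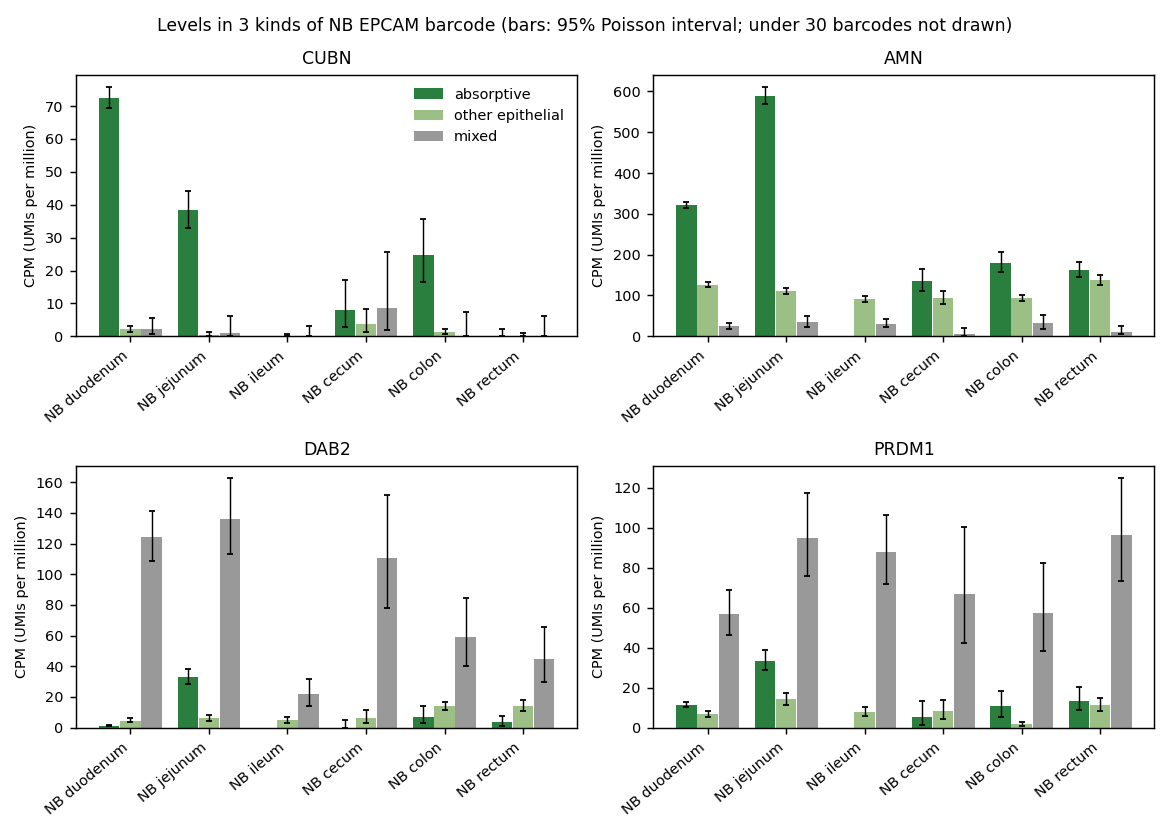
Level of the 4 detected genes (CPM, linear axis from 0) in absorptive, other epithelial and mixed EPCAM barcodes of each NB intestinal library, with exact 95% Poisson intervals. Classes under 30 barcodes are not drawn, which leaves out the absorptive class of NB ileum. CUBN and AMN are highest in absorptive barcodes of NB duodenum and jejunum, and DAB2 and PRDM1 in mixed barcodes, with DAB2 also at 33.1 CPM in absorptive barcodes of NB jejunum.

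Within the upper small intestine the genes followed the absorptive content of a barcode to different degrees. In NB duodenum, CUBN had 2.16 CPM below 0.5% absorptive-marker UMIs, 14.0 CPM at 0.5% to 2%, 30.4 CPM at 2% to 5%, 64.4 CPM at 5% to 10% and 152 CPM at 10% to 20%, and none of these intervals overlapped another. At 20% or more it had 160 CPM in 61 barcodes, an interval that overlapped the one before. AMN went from 126 to 862 CPM over the same 6 steps. PRDM1 changed less, from 6.57 to 21.1 CPM, and DAB2 stayed at or below 4.97 CPM.

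In NB jejunum the same steps took CUBN from 0.428 to 105 CPM and AMN from 111 to 1466 CPM. DAB2 had 6.13 CPM in the lowest step, 2.95 CPM at 0.5% to 2%, 1.03 CPM (1 UMI) at 2% to 5%, 6.43 CPM at 5% to 10%, 61.0 CPM at 10% to 20% and 106 CPM at 20% or more, so that its absorptive UMIs came mostly from the 166 barcodes with the highest marker content. At that content, DAB2 had 11 UMIs in the 532 barcodes of NB duodenum. PRDM1 went from 14.1 CPM to 52.1 CPM at 10% to 20% and had 43.2 CPM at 20% or more, with overlapping intervals in these last steps. Between the lowest and the highest step, proliferation markers went from 713 to 22.2 CPM and goblet cell markers from 9717 to 87.6 CPM, and goblet cell markers in NB duodenum from 9510 to 199 CPM. Their part in the rise of AMN, which was low in goblet barcodes, was not tested. The comparison of steps is a description of cells of 1 library, and APOA1, FABP1 and the other markers that define a step also make up part of its UMIs.

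**Figure D3:**
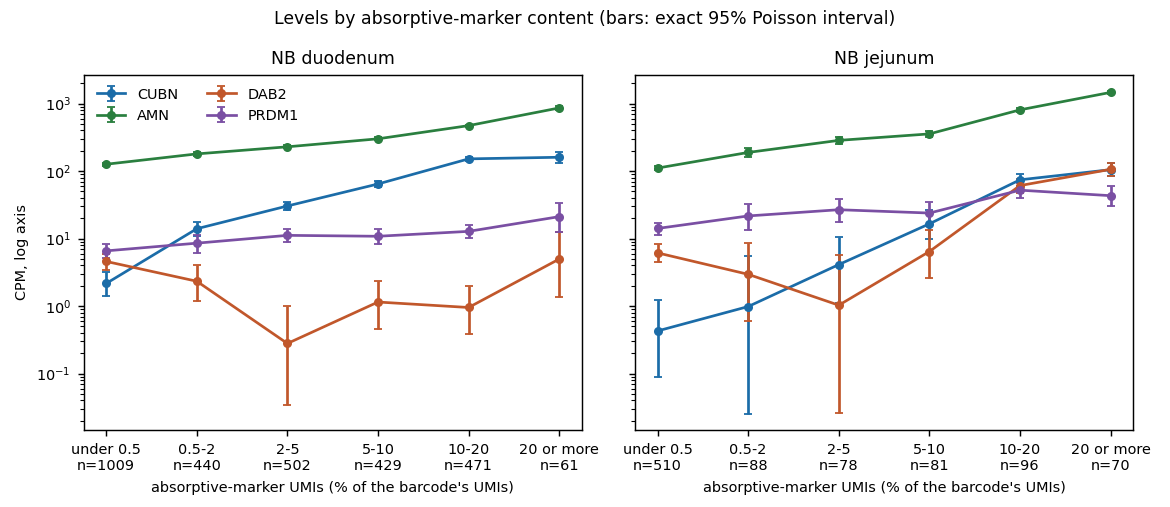
Level (CPM, log axis) of CUBN, AMN, DAB2 and PRDM1 in EPCAM barcodes without other lineages, by the percent of UMIs from 14 absorptive markers, in NB duodenum and NB jejunum, with exact 95% Poisson intervals and the number of barcodes under each step. CUBN and AMN rise in both tissues, and DAB2 in jejunum is at 6.13 CPM or below in the first 3 steps and at 106 CPM in the last, while it stays at or below 4.97 CPM in duodenum.

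The jejunal absorptive barcodes with a DAB2 UMI were described further, since DAB2 was rare in those of the duodenum. The 76 barcodes with DAB2 had a median of 10734 UMIs and the 337 without had 12450, so barcodes with DAB2 were not the deeper ones. Macrophage markers had 115 CPM in the first and 107 CPM in the second. AMN had 1322 CPM with and 422 CPM without DAB2 (3.13-fold, 2.91 to 3.37), and CUBN 82.5 and 28.2 CPM (2.93-fold, 2.17 to 3.94). MAMDC4, which encodes endotubin of the apical endosome, had 47.1 and 7.10 CPM (6.64-fold). Among 6 measured genes in the list named suckling-type, MAMDC4 was at least 2-fold higher with DAB2 and FABP6 at least 2-fold lower. LGMN, the lysosomal protease legumain, had 363 and 55.3 CPM. Of 26 measured lysosomal genes 9 were at least 2-fold higher with DAB2 and 0 lower, among them HEXA and NEU1, which encode glycosidases, and LAMP2, a membrane protein of the lysosome. Over all 6573 genes tested, 3.64% passed this fold upward and 8.06% downward. Among the 10 measured clathrin coat genes and the 14 endosomal sorting genes, 0 passed it in either direction. FCGRT, the neonatal Fc receptor, went the other way with 343 and 648 CPM, and PIGR, the receptor that carries IgA, had 23.6 and 100.1 CPM. In NB duodenum 29 absorptive barcodes had DAB2 and 1874 did not. Of 26 lysosomal genes, LGMN (18 UMIs with DAB2) and TPP1 were at least 2-fold higher with it, beside 1.73% of all genes upward and 2.35% downward. MAMDC4 had 1 UMI in those 29 barcodes.

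Since DAB2 barcodes also held more absorptive markers (18.3% against 7.78% of UMIs), the split was repeated among the 166 jejunal barcodes at 10% or more. There, the 66 barcodes with and the 100 without DAB2 had 57.0 and 7.69 CPM of MAMDC4, 429 and 125 CPM of LGMN, 93.3 and 28.2 CPM of HEXA, and 1528 and 788 CPM of AMN. The CUBN difference shrank to 99.8 against 78.6 CPM (1.27-fold, 0.926 to 1.74), which counting error covers. LAMP1 had 477 and 450.1 CPM, and PRDM1 49.3 and 47.8 CPM. FABP1, the cytosolic fatty acid binding protein, had 18171 and 38790 CPM and APOA1, the lipoprotein component that cubilin also binds, 133259 and 71152 CPM. Of 27 lysosomal genes 4 passed 2-fold upward (CTSH, LGMN, HEXA and NEU1) and 0 downward, beside 2.39% and 2.63% of all genes. In the other lists MAMDC4 passed upward, and FABP6, MMACHC and MGAM passed downward.

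**Figure D4:**
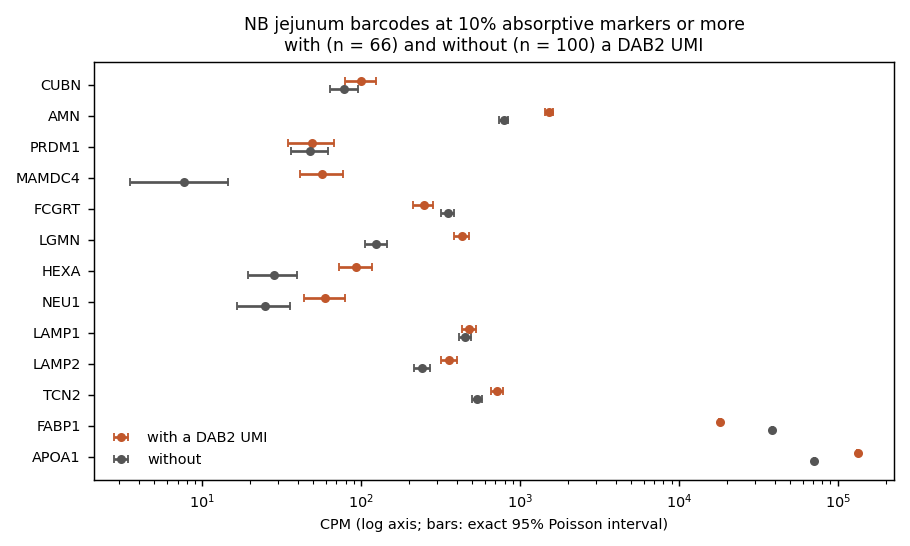
Level (CPM, log axis) of 13 genes in NB jejunum barcodes at 10% absorptive markers or more, with (66 barcodes) and without (100 barcodes) a DAB2 UMI, with exact 95% Poisson intervals. MAMDC4, LGMN, HEXA, NEU1 and AMN are higher with DAB2, FABP1 and FCGRT lower, and the intervals of CUBN, PRDM1 and LAMP1 overlap.

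The same split was made by CUBN. In NB duodenum the 832 barcodes with CUBN had 412 CPM of AMN and the 1071 without had 235 CPM (1.75-fold, 1.68 to 1.83), and the first had a higher median depth (16457 against 12727 UMIs). TCN2, which encodes the plasma carrier of vitamin B12, had 232 and 103 CPM, and SLC5A1, the sodium-glucose transporter, 122 and 50.0 CPM. FCGRT had 503 and 624 CPM. Of 27 lysosomal genes 1 (ARSA, an arylsulfatase) passed 2-fold upward and 0 downward, beside 1.21% and 0.854% of all 6203 genes. At 10% absorptive markers or more, AMN was at 529 CPM in 415 barcodes with and 419 CPM in 117 without CUBN (1.26-fold, 1.16 to 1.38). There 0 of 27 lysosomal genes passed, beside 0.551% and 0.121% of all genes. Of the cubilin ligand and vitamin B12 list 0 of 6 measured genes passed, and of the weaned-type list 0 of 5. At shares this low, these counts of 0 carry no result. In NB jejunum, DAB2 had 69.2 CPM in the 114 barcodes with and 17.2 CPM in the 299 without CUBN (4.03-fold, 2.91 to 5.62). There 4 of 27 lysosomal genes passed upward (among them LGMN, ARSA and MAN2B1) and 0 downward, beside 3.40% and 9.85% of all genes. At 10% absorptive markers or more these differences were within counting error, with DAB2 at 84.2 and 71.6 CPM (1.18-fold, 0.831 to 1.69) and AMN at 1078 and 1091 CPM, and 0 of 28 lysosomal genes passed, beside 1.12% and 1.09%. In the split by PRDM1, 0 genes of the lysosome, coat, sorting, suckling-type and weaned-type lists differed 2-fold in either tissue. Of all genes, 0.0464% passed upward and 0.294% downward in jejunum, and 0.0163% and 0.0813% in duodenum. At shares this low, a count of 0 in the lists carries no result about PRDM1.

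Between stages, levels in EPCAM barcodes were compared as the log2 ratio of CPM with 5 CPM added to each, and 2 or more (4-fold) counted as past the fold. The added 5 CPM understates every change, most in low genes, so a gene exactly 4-fold higher in CPM falls short of it. Pairs with a low NB level could not pass upward even against 0 in AD. These were LRP2 in each tissue, CUBN in cecum and colon, DAB2 in duodenum, and PRDM1 in duodenum, cecum and colon. NB was past the fold over AD in 4 of 20 pairs of gene and tissue: CUBN in duodenum, AMN in duodenum and jejunum, and DAB2 in jejunum. In jejunum 2 of 5 genes passed beside 2.81% of all 8114 genes, in cecum 0 of 5 beside 3.62%, and in colon 0 of 5 beside 1.55%. In duodenum 2 of 5 passed beside 16.5%, against the 31 AD barcodes that were mostly not epithelial. The shares cover genes at 10 CPM or more in either profile. LRP2 did not reach this in any tissue, nor did CUBN in cecum and colon or DAB2 in duodenum. In the other direction PRDM1 in duodenum was past the fold, beside 6.93% of all genes, and 0 of 5 genes were in jejunum (4.44%), cecum (1.91%) and colon (2.93%). Without duodenum 2 of 15 pairs were left. Both depended on the barcodes used. The log2 ratio of AMN in jejunum was 2.10, but 1.11 with doublets left in and 0.76 with the limit of 4000 genes lifted and doublets scored anew. That of DAB2 was 2.09, and 1.94 with doublets left in. CUBN in jejunum, at 1.73, was past the fold without the mixed barcodes described above (2.08), and at 0.13 with mitochondrial UMIs under 10%. The median log2 ratio over all genes was -0.40 in jejunum, -0.14 in cecum and -0.37 in colon.

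The ratios without an added value were as follows. AMN was 4.55-fold higher in NB than AD jejunum (3.52 to 5.99), 1.40-fold higher in colon (1.14 to 1.73) and close to equal in cecum (0.976-fold, 0.818 to 1.16). DAB2 was 11.8-fold higher in NB jejunum, against 2 AD UMIs (3.24 to 97.8), 11.9-fold in cecum (4.37 to 45.6; 2.73-fold, 0.788 to 11.9, without mixed barcodes) and 3.12-fold in colon (1.48 to 7.88). CUBN was 14.0-fold higher in NB jejunum, against 1 AD UMI (2.48 to 555), and at least 4.98-fold higher in NB cecum, where AD had 0 UMIs and the floor of 3 counts was used in their place. The exact lower limit of that ratio, which also covers the NB count, was 3.57. In colon the CUBN ratio was 5.46 against 1 AD UMI (0.922 to 221). PRDM1 did not differ beyond counting error in jejunum (0.930-fold, 0.628 to 1.43), but 22 of its 27 AD UMIs there lay in mixed barcodes, and without those it was 3.07-fold higher in NB (1.30 to 9.53). It did not differ beyond counting error in cecum (1.05-fold, 0.655 to 1.68) and was lower in NB colon (0.268-fold, 0.169 to 0.433). In duodenum PRDM1 was lower in NB (12.1 against 214 CPM), where AD barcodes were rich in plasma cell RNA.

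**Figure D5:**
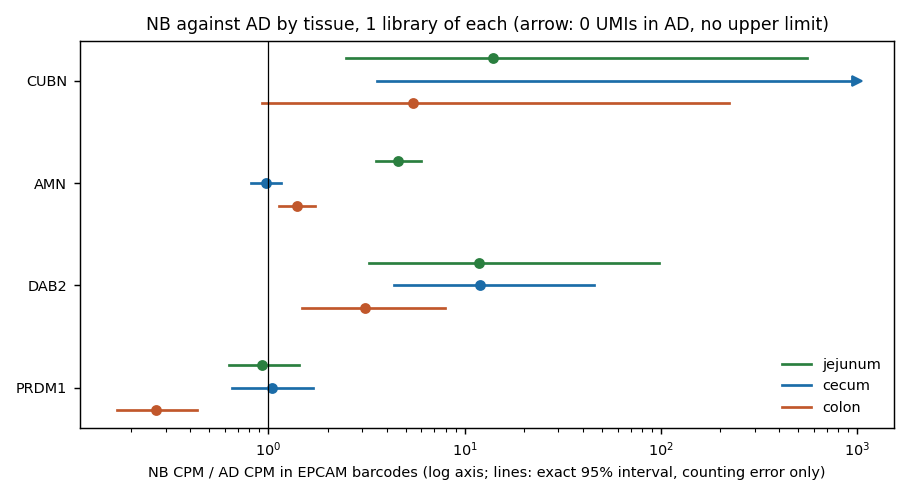
Ratio of NB to AD CPM (log axis) in EPCAM barcodes of jejunum, cecum and colon, with 1 library of each stage and exact 95% intervals for counting error. The AMN ratio is 4.55 in jejunum and near 1 in cecum, and the PRDM1 ratio is 0.268 in colon.

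The EPCAM barcodes of the stages were not made up alike. In jejunum, the 16 absorptive markers (GUCA2A and GUCA2B included) summed to 39555 CPM in NB and 3000 CPM in AD, tuft cell markers to 18.6 and 1279 CPM, macrophage markers to 447 and 1252 CPM, and JCHAIN to 2.17 and 17703 CPM, and the absorptive class held 413 and 6 barcodes. In the large intestine absorptive markers were lower in NB, with 6042 against 31822 CPM in cecum and 4852 against 25540 CPM in colon. The part of this make-up in the ratios was not tested. With the limit of 4000 genes lifted and doublets scored anew, 36 absorptive barcodes of AD jejunum and 492 from NB jejunum could be compared, a choice made after seeing the data. There CUBN had 29.4 CPM in NB and 2 UMIs in AD (11.9-fold, 3.27 to 99.2), and DAB2 23.0 CPM against 0 UMIs, at least 6.25-fold higher in NB by the same floor, with an exact lower limit of 5.03. PRDM1 had 30.9 CPM against 2 UMIs (12.6-fold, 3.45 to 105), a difference that the whole set of EPCAM barcodes did not show. AMN had 474 and 254 CPM (1.86-fold, 1.62 to 2.16) and was detected in all 36 AD barcodes.

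In absorptive barcodes of the large intestine, again without the upper limit on genes, CUBN had 9.97 CPM in 136 NB cecum barcodes and 0 UMIs in 61 of AD cecum, at least 3.91-fold higher in NB by the same floor, with an exact lower limit of 2.997. In colon it had 14.0 CPM in 179 NB barcodes and 1 UMI in 39 AD barcodes (7.64-fold, 1.31 to 308). AMN was 1.31-fold higher in NB cecum (1.09 to 1.59) and 2.18-fold in NB colon (1.57 to 3.09). With the limit kept and doublets as first scored, AMN did not differ beyond counting error in cecum (0.930-fold, 0.716 to 1.21), while it was 2.07-fold higher in NB colon. Without the limit, PRDM1 had intervals that included 1 in cecum and colon, and so did DAB2 in both. In colon DAB2 had 13 NB UMIs and 0 AD UMIs, with an exact lower limit of 0.475. With the limit kept and doublets as first scored, PRDM1 in cecum had 4 NB UMIs and 16 AD UMIs (0.322-fold, 0.0783 to 0.998). The PRDM1 ratio in cecum therefore depended on these choices, which were changed together.

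Few other genes of the pathway were past the fold between stages, and nothing particular to the lists below is read from their counts. Of all genes, 2.81% were higher and 4.44% lower in NB jejunum. In cecum these shares were 3.62% and 1.91%, and in colon 1.55% and 2.93%. Of 30 measured lysosomal genes in jejunum, 28 in cecum and 29 in colon, the only one past 4-fold was ACP5, an acid phosphatase, higher in NB colon. Of the clathrin coat genes, 13 were measured in each tissue, and SYNJ1 and BIN1 were 4-fold lower in NB jejunum. EHD4 was the only endosomal sorting gene past the fold, higher in NB cecum. Among the list of coreceptors and other receptors, PIGR was 4-fold lower in NB in all 3 tissues (313 against 3695 CPM in jejunum) and STAB1, a scavenger receptor of macrophages and endothelium, higher in NB cecum. The median log2 ratio of that list was 0.03 in jejunum, -0.30 in cecum and -0.60 in colon.

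In the group of cubilin ligands and vitamin B12 handling, 3 of 8 measured genes were past the fold upward in NB jejunum (2.81% of all genes), 3 of 7 in cecum (3.62%) and 2 of 7 in colon (1.55%). These differences from other genes were not tested. TCN2 was past the fold in jejunum (232 against 39.1 CPM) and cecum (322 against 36.2 CPM). CD320, the cell receptor for the TCN2 complex, passed in the same tissues (109 against 5.42 CPM in jejunum), and APOA1 passed in jejunum, cecum and colon. TCN1, another B12 binder, passed in colon (147 against 3.55 CPM), but in cecum it was lower in NB (132 against 276 CPM), short of the fold. Of 5 measured genes in the list named suckling-type, LCT (lactase, 35.7 CPM against 0 UMIs) and ASS1, of arginine synthesis, were higher in NB jejunum. ASS1 was 4-fold lower in NB cecum and colon. FCGRT, in the same list, did not pass (527 against 250 CPM in jejunum). Of 5 measured genes in the list named weaned-type, TREH (trehalase), SLC5A1 and SLC2A2 (a glucose transporter) were also higher in NB jejunum. The names of the suckling-type and weaned-type lists were not tested in cattle here, so no state of maturation is read from them. The absorptive content of the barcodes, for which APOA1, LCT and SLC5A1 are themselves markers, moved with these genes. SI (sucrase-isomaltase), also in the weaned-type list, was 4-fold lower in NB colon. Among regional transcription factors CDX1 was 4-fold lower in NB jejunum (47.9 against 261 CPM).

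Along the NB intestine, none of the 5 genes separated the 3 small intestinal from the 3 large intestinal libraries. Over all 8338 genes tested, 12.1% were higher in all 3 small intestinal libraries and 13.0% in all 3 large ones. NB ileum crossed the large intestine for CUBN and AMN. For DAB2, NB duodenum (7.92 CPM) and NB ileum (7.83 CPM) lay below the 3 large intestinal libraries (13.9 to 17.8 CPM), and NB jejunum (25.6 CPM) lay above. In absorptive barcodes AMN did lie higher in all 3 small intestinal libraries (322 to 589 CPM against 136 to 181 CPM), where NB ileum counted with 5 barcodes and 14 AMN UMIs. The share of all genes that do so in absorptive barcodes was not taken, so nothing particular to AMN is read from this.

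The genes whose level over the 10 intestinal libraries was most like that of a member were found by Pearson's r of log2(CPM + 5) among 4196 genes at 50 CPM or more in at least 1 library. For CUBN they were SLC28A2 (r = 0.937), ACY1, LPGAT1, CDIPT and SLC27A4 (r = 0.931). For AMN they were RAB5IF (r = 0.969), ISOC2, CYB5R3, ATP13A2 and NDUFB4. For DAB2 they were NR4A1 (r = 0.923), BAG3, HSPH1, IDI1 and GRO1. For PRDM1 they were SDF2 (r = 0.962), GYG1, ADGRG1, HERC5 and RABGAP1L, all 5 highest in AD duodenum. These are descriptions over 10 points that share the barcode selection, and without AD duodenum, an alternative added after seeing the data, the first genes were MGAT4B for CUBN, YIF1A for AMN, INSIG1 for DAB2 and TAPBPL for PRDM1.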

How the data were processed

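UMI counts of 15 libraries were used. The authors demultiplexed the reads and counted UMIs per gene with Cell Ranger 3.1.0 on the ARS-UCD1.2 genome, and the deposited values are whole counts per gene and barcode with no normalization. The limits of the study's methods were applied, namely 500 to 4000 genes per barcode, fewer than 50000 UMIs, and a mitochondrial share (13 genes) below 40%. For doublets, DoubletFinder was replaced by a Scrublet-type score from simulated pairs (2 for every cell) in 30 principal components. Top-scoring barcodes were dropped at a rate of 0.8% for every 1000 barcodes, which left 119798 of 172405 barcodes. The median depth of EPCAM barcodes in intestinal libraries was 3684 to 13415 UMIs.

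CPM was computed from UMIs summed over the EPCAM barcodes of a library. Intervals are exact Poisson for counts, exact binomial (Clopper-Pearson) for shares and exact conditional binomial for ratios. UMIs do not remove free RNA, and a share of 0 allows up to 3 counts of the total. Differences in many genes were read on log2(CPM + 5) among genes at 10 CPM or more in either profile. The counting rules were tested on simulated data. With a single library for every tissue and stage, no p-value is given.

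The members and lists were chosen with earlier results of these data known. The named genes are the 5 members, the genes of the lists (coreceptors, clathrin coat, endosomal sorting, lysosome, cubilin ligands and B12, suckling-type, weaned-type, regional factors and cell type markers) and the 5 genes most like each member. The classes of absorptive, other epithelial and mixed barcodes, and their cuts at 0.5% and 0.1%, were chosen after the counts had been seen. So were the kinds among other epithelial barcodes, with goblet markers at 0.5% or more and proliferation markers at 0.1% or more. GUCA2A and GUCA2B were taken out of the 16 absorptive markers for the classes. Barcodes of other lineages had 0 EPCAM UMIs and both of a pair of markers, CD3E and PTPRC for T cells, CSF1R and PTPRC for macrophages, COL1A2 and DCN for stroma, PECAM1 and CDH5 for endothelium, and MZB1 with JCHAIN at 1% of UMIs or more for plasma cells. Gene positions and sequences were not used here. Alternatives for the barcodes, limits, doublets, pseudocount and scaling were tried. Software was matplotlib 3.10.9, scikit-learn 1.9.0, SciPy 1.17.1, NumPy 2.4.6 and pandas 2.3.3 under Python 3.11.15. Results for a few genes of the lists are not reported here.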

Additional observations from a re-analysis of the deposited data

Results flagged for a closer look

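In libraries outside the intestine, 3 levels in EPCAM barcodes exceeded, with the lower end of their interval, 16.4 CPM, the highest level that a count of 0 allows in any of those 5 libraries. PRDM1 had 47.1 CPM in NB omasum (45.5 to 48.7, in 2032 of 6541 barcodes) and 50.0 CPM in NB reticulum (48.0 to 52.0, in 1360 of 3997 barcodes), above its 33.5 CPM in the absorptive barcodes of NB jejunum. Mixed barcodes, with UMIs of other lineages, made up 1.68% and 4.88% of the EPCAM barcodes there, and KRT8 was seen in 1.51% and 4.03% of them. DAB2 had 65.3 CPM in NB liver (48.9 to 85.4, in 34 of 117 barcodes), where mixed barcodes made up 11.1% and held 0 of its 53 UMIs, which all lay in the 98 barcodes past the absorptive limit. That limit is a marker score made for intestinal barcodes. As 83.8% of the liver EPCAM barcodes passed it, it does not name an absorptive cell there. CUBN had 4 UMIs and AMN 0 in the same liver barcodes.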

How the results depend on the processing

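No paired analysis was possible because each tissue and stage had 1 library, and no replicate could be left out. The 4 of 20 pairs past the fold became 2 with doublets left in, 8 with 1 CPM added, 1 with 20 CPM added, 9 at 2-fold and 2 without duodenum. No share of all genes is given for the changed settings, so nothing particular to the members is read from these counts. The cause of the changes was not tested. Another 10 alternatives gave 3 to 5, though not of the same pairs: of these 10, AMN in jejunum passed under 3 and DAB2 in jejunum under 8, and CUBN in jejunum passed under the 3 that kept absorptive barcodes or left out other lineages. Members separating NB small from large intestine went from 0 to 1 (AMN) in absorptive barcodes, with no share of all genes to set beside it, and stayed at 0 under 10 alternatives. Of 50 pairs of member and library, 32 had more than 3 UMIs, and 25 to 34 did under the alternatives. The log2 ratio of PRDM1 in duodenum (-3.68) reversed to 1.59 with KRT8 required and to 1.57 without barcodes of other lineages, which left 2 and 3 AD barcodes with 0 PRDM1 UMIs, too few to give a direction. In NB jejunum absorptive barcodes, mitochondrial UMIs under 10% left 78 of 413 barcodes and took DAB2 from 33.1 to 10.2 CPM and CUBN from 38.3 to 15.9 CPM, again with no test of the cause. Leaving out mitochondrial and abundant genes moved the median log2 ratio of all genes from 0.16 to -0.07 in duodenum and from -0.14 to 0.02 in cecum. Depth limits the AD values, where 1 UMI is worth 0.373 to 1.08 CPM in jejunum, cecum and colon.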

Other observations

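Amnionless transcripts were also found in barcodes without EPCAM that carried plasma cell markers. In the 4 AD libraries 6.36% to 11.5% of plasma barcodes held an AMN UMI (7.28 to 13.8 CPM), against 0.0448% to 0.250% of T cell barcodes. The plasma barcodes were deeper, with medians of 9614 to 12579 UMIs against 3597 to 4130. NB ileum plasma barcodes had 64.3 CPM of AMN (51 of 319 barcodes) and NB colon 37.9 CPM (21 of 120), while NB cecum had 1 UMI in 116 barcodes.

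Goblet barcodes of NB rectum also differed from those of the other NB libraries in DAB2, with 18.9 CPM against 0.429 to 4.58 CPM in duodenum, jejunum, ileum and colon. In AD jejunum, 49 barcodes with tuft cell markers had 1 AMN UMI and 0 CUBN and DAB2 UMIs, which allows up to 10.6 CPM for each of these genes.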
